A study of Mus musculus with 15 samples.

Results

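The genes described here encode the fibroblast growth factors (FGFs) and their receptors, the platelet-derived growth factors (PDGFs) and their receptors, the vascular endothelial growth factors VEGF-A, VEGF-B and VEGF-C, the insulin-like growth factors (IGFs) with their receptors and binding proteins, and hepatocyte growth factor with its receptor MET. They were chosen by gene name: every probe of the array whose name in the scanner files was one of these genes was taken, which gave 98 probes of 48 genes among 56605 probes of 37008 gene names. In 19 of the 48 genes a single probe reads the transcript, and 29 have several, up to 4. VEGF-D is named Figf on this array, so its 2 probes were not taken by the rule and it is given only among the neighbouring genes.

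Mouse pancreatic stellate cells (PSC) and mouse neoplastic pancreatic cells were profiled on 15 single-colour arrays, 3 in each of 5 groups. PSC HT were isolated from HT mice, which the labels call heterozygous, and PSC WT from wild-type mice, and both were cultured for 2 weeks until activated. Neoplastic cells were exposed for 24 h to medium conditioned by PSC HT (HT PSC medium), to medium conditioned by PSC WT (WT PSC medium) or to control medium. The sources used here do not name the heterozygous locus, the strain, the age of the mice or the neoplastic line. Nor do they say whether the replicates of a group are different animals or cultures, so the p-values cover only the variation among the arrays at hand, part of which can be technical.

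Most FGFs bind receptor tyrosine kinases of the FGFR family, many of them together with heparan sulfate, and many act from stroma on epithelium. PDGF ligands signal through PDGFR-alpha and PDGFR-beta, which are typical receptors of fibroblasts and activated stellate cells and drive their growth and migration. IGF-1 and IGF-2 signal through IGF1R, IGF2R clears IGF-2, and the IGFBPs hold both ligands in the extracellular space. HGF is a classical product of mesenchymal cells that acts on MET of epithelial cells, and VEGFs act mainly on endothelium.

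Each value called a level below is log2 of the background-subtracted signal relative to the 75th percentile of its array, so 0 is that percentile and 1 unit is a doubling. Every gene is given by the probe with the highest mean over the 15 arrays, and levels of different probes are not set against each other. A gene was tested if 1 of the groups in the fit had that probe well above background on each of its arrays, and was called at an adjusted p under 0.05 in limma with Benjamini-Hochberg adjustment over all genes tested. Folds of dim genes carry the noise of the background as well, and the number of arrays limits the precision throughout.

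Before the results, the identity of the samples was checked. All 12 stellate cell and fibroblast markers were well above background on every PSC array, and 13 of 15 epithelial markers on every neoplastic array. On every array of PSC WT 9 epithelial markers were above background too, as were 9 on every array of PSC HT. Their summed linear level was 14.4 to 15.3 in PSC WT, 6.96 in PSC HT 1, 7.80 in PSC HT 2 and 24.3 in PSC HT 3. In neoplastic cells it was 653 to 782. PSC HT 3 stood apart: its level of the epithelial cadherin Cdh1 was -2.45, against -8.22 to -7.61 on the other PSC arrays, while neoplastic cells had 4.22 to 4.49. Its level of the keratin Krt19 was 0.95, against -1.58 to -0.68 on the other PSC arrays. PSC HT also carried more leukocyte transcripts, with 16 of 17 macrophage and leukocyte markers higher than in PSC WT and a summed linear level of 79.3 to 206 in PSC HT against 16.7 to 32.3 in PSC WT. Of 11 mesothelial markers 6 were lower, with a summed level of 14.5 to 23.4 in PSC HT against 45.5 to 55.1 in PSC WT. Of 10 endothelial markers tested 6 were lower and 1 higher in PSC HT. The summed level of the endothelial list overlapped, at 9.02 to 9.96 in PSC HT against 9.54 to 9.95 in PSC WT. Its median level did not, at -4.92 to -4.47 in PSC HT against -3.69 to -3.29 in PSC WT. Among the stellate cell markers 1 of 12 was higher in PSC HT. Of 5 Schwann cell and nerve markers tested, Ngfr was higher (1.43) and Mbp (-1.59) and S100b (-0.67) were lower. Their list had a summed level of 1.51 to 1.95 in PSC HT against 4.14 to 5.25 in PSC WT. Mbp, with a mean log2 level of 0.52 in PSC HT and 2.11 in PSC WT, made up most of this sum. The median level of the list went the other way, at -4.36 to -4.19 in PSC HT against -5.39 to -5.02 in PSC WT. The arrays lay on 2 slides, each of which held arrays of all 5 groups.

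Probe sequences are shown for Fgf23, whose single probe holds a CA repeat, for Fgfr1, whose brightest probe is rich in A, for Igf1, whose probes differ in the size of the contrast between cell types, and for Met and Pdgfd, whose 2 probes both passed the test between genotypes. Each line gives 30 bases of a 60-base probe, 5′ to 3′, with its mm9 position in the scanner files, and capitals mark a CA repeat or a run of 3 or more A. No annotation of that build was used, so the exon is not given.
Fgf23, bases 1 to 30 (chr6:127030758-127030817, + strand): cCACACACACACACACACACAtacatgtaa
Fgfr1, probe used, bases 31 to 60 (chr8:26685072-26685131, + strand): tattAAAAAcAAAcgaacagAAAgAAAAAA
Fgfr1, probe 2, bases 31 to 60 (chr8:26680165-26680224, + strand): caaccgtgtgaccAAAgtggccgtgaagat
Fgfr1, probe 3, bases 31 to 60 (chr8:26686086-26686145, + strand): cttggagaccgtgtatcatagtggtttttt
Fgfr1, probe 4, bases 31 to 60 (chr8:26682852-26682911, + strand): ggcttagctcgagacattcatcatatcgac
Igf1, probe used, bases 1 to 30 (chr10:87378456-87378515, + strand): aaccattAAAAAcatgccaccaagaccttc
Igf1, probe 2, bases 1 to 30 (chr10:87393516-87393575, + strand): cgcaggatcctttgctgcttgagcaacctg
Igf1, probe 3, bases 1 to 30 (chr10:87325382-87325441, + strand): tAAAAtagttgagtAAAAtttgccactgat
Met, probe used, bases 1 to 30 (chr6:17523765-17523824, + strand): gagAAAgctgtaatgtgAAAAtcatgttct
Met, probe 2, bases 1 to 30 (chr6:17442312-17442371, + strand): cgatcagcagtctgtgcattccccatcAAA
Pdgfd, probe used, bases 1 to 30 (chr9:6378717-6378776, + strand): atggctcctatAAAAAAcaccAAAAtgtac
Pdgfd, probe 2, bases 1 to 30 (chr9:6376926-6376985, + strand): gaaggggcAAAgctaagaatatggctcttg

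Across the groups, 24 of the 48 genes were well above background on every array. Another 8 were so on all 6 PSC arrays and on none of the 9 neoplastic arrays, namely Fgf2, Fgf5, Fgf9, Fgf10, Fgf21, Hgf, Pdgfra and Pdgfrb. No array was above background for 5 genes, Fgf4, Fgf16, Fgf17, Fgf22 and Igfbp1. The remaining 11 were above background on part of the arrays. These classes rest on the probe used: among the 24, the other probes of Fgfr1 and Igf1 were above background on no control medium array. By group, all 3 arrays were above background for 35 genes in PSC HT, 39 in PSC WT, 26 in HT PSC medium, 27 in WT PSC medium and 29 in control medium.

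**Figure D1:**
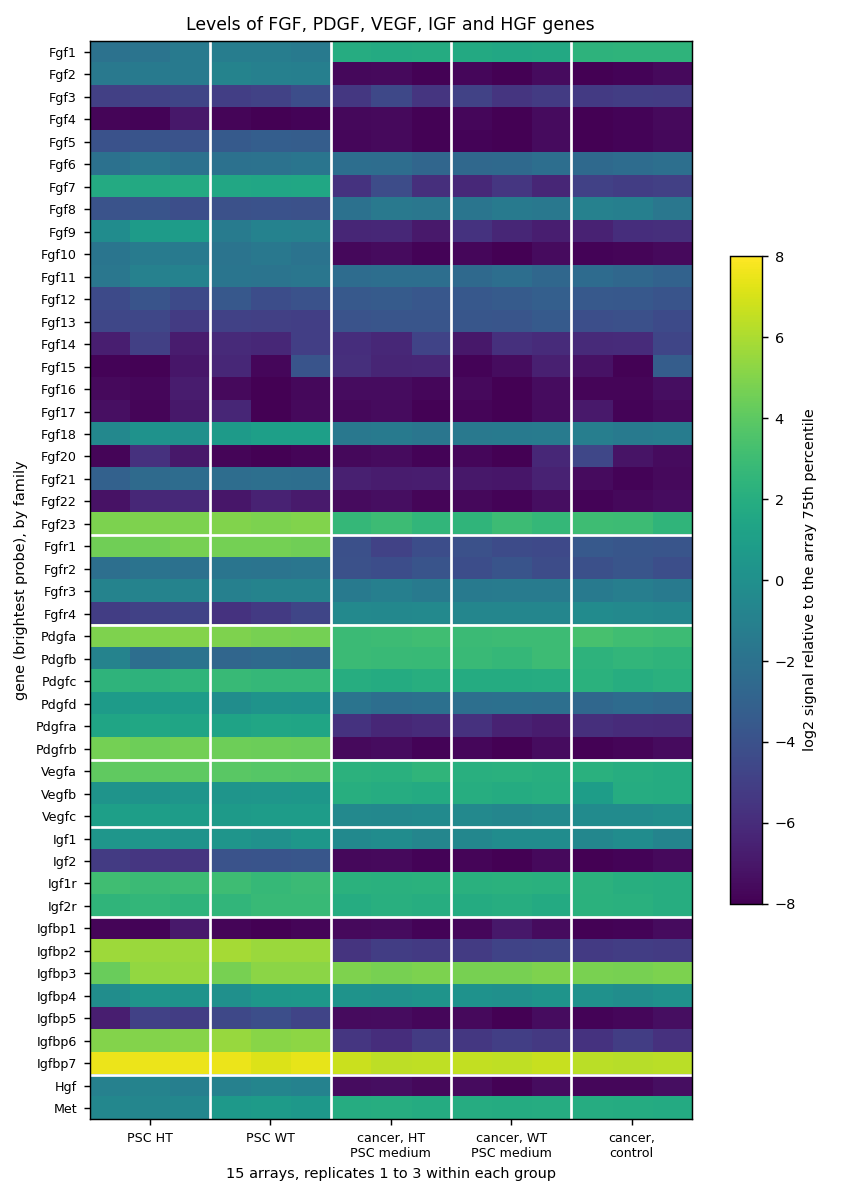
Level of each of the 48 genes (rows, by family) on each of the 15 arrays (columns, 3 per group), as log2 signal relative to the array's 75th percentile, colour scale from -8 to 8. The PDGF receptors, Hgf, Igfbp2, Igfbp6, Fgfr1 and Fgf7 differ most in colour between the 6 PSC arrays and the 9 neoplastic arrays, and Fgf1, Fgfr4 and Pdgfb differ in the other direction.

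The genotypes of the stellate cells were compared first, which asks what the heterozygous state changes in the growth factors these cells make and sense. Of 39 genes tested, 2 rose in PSC HT (Fgf9 and Pdgfd) and 5 fell (Met, Igf2, Fgf18, Fgf5 and Fgf2). That is 17.9% of the genes tested, beside a background of 7.73% of all 20886 genes tested in this fit (2.95% higher and 4.78% lower in PSC HT). The median difference over the 39 genes was -0.01, against -0.0028 over all genes. The PSC HT and PSC WT arrays did not overlap in 18 of the 39 genes, beside 29.1% of all genes.

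Met, the receptor of HGF, fell in PSC HT. Its level was -0.60, -0.67 and -0.60 in PSC HT, against 0.66, 0.80 and 0.52 in PSC WT. The 3 PSC HT arrays were nearly alike and below every PSC WT array. The difference was -1.28 ± 0.09 (log2, SE), with an adjusted p of 0.0012. The second probe, which lies in another stretch of the gene, differed by -1.48 ± 0.22 with an adjusted p of 0.014 over all probes tested. Met was as low without PSC HT 3, at -1.29 with an adjusted p of 0.0063, and was -1.26 within slide 1 and -1.33 within slide 2. Its ligand gene Hgf averaged -0.96 ± 0.12 in PSC HT and -0.86 ± 0.12 in PSC WT (SD, n = 3 each) and was not called.

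Igf2, the fetal IGF expressed from the paternal allele, also fell. Its level was -5.19, -5.44 and -5.51 in PSC HT, against -3.91, -3.87 and -3.74 in PSC WT. All PSC HT arrays were below all PSC WT arrays, and only 2 of the 3 PSC HT arrays were well above background. The difference was -1.54 ± 0.11 with an adjusted p of 0.0011, and it was -1.48 without PSC HT 3 with an adjusted p of 0.0050. A second Igf2 probe was at background on the PSC WT arrays.

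The other IGF genes did not pass the test between genotypes. Igfbp6 was lower in PSC HT and passed in limma with quantile scaling (-0.31, adjusted p 0.032) and with the series matrix values (-0.32, adjusted p 0.028). Igfbp5, which encodes a binding protein of the extracellular matrix, averaged -5.57 ± 0.96 in PSC HT and -4.48 ± 0.28 in PSC WT (SD, n = 3 each), and only 1 PSC HT array was above background. Igfbp3, the main serum carrier of IGF, ranged from 4.34 to 5.47 in PSC HT and from 4.74 to 5.20 in PSC WT, so the groups overlapped. Igfbp2 averaged 5.61 ± 0.04 in PSC HT and 5.68 ± 0.12 in PSC WT (SD, n = 3 each).

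Fgf18, an FGF with roles in bone and lung, fell in PSC HT. Its level was -0.52, 0.13 and 0.04 in PSC HT, against 0.75, 1.03 and 1.03 in PSC WT. The groups did not overlap, with PSC HT 1 the lowest. The difference was -1.06 ± 0.19 with an adjusted p of 0.024. Without PSC HT 3 it was -1.13 with an adjusted p of 0.053, which no longer passed, as was also so when any 1 PSC WT array was left out.

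Fgf5, known as an inhibitor of hair growth, stood at -3.96, -3.85 and -3.89 in PSC HT, against -3.44, -3.23 and -3.30 in PSC WT. Both sets of arrays were tight and apart. The difference was -0.57 ± 0.08 with an adjusted p of 0.012, and -0.58 without PSC HT 3 with an adjusted p of 0.045. The call was lost without PSC WT 2 (-0.53, adjusted p 0.054), without PSC WT 3 (-0.56, adjusted p 0.067) and with normexp background correction (-0.29, adjusted p 0.085).

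Fgf2, basic FGF, was at -1.55, -1.41 and -1.41 in PSC HT, against -0.84, -1.05 and -1.12 in PSC WT. The groups did not overlap, yet the gap between the nearest arrays was small. The difference was -0.45 ± 0.10 with an adjusted p of 0.045, which did not pass when any 1 of the 6 arrays was left out (-0.48 and adjusted p of 0.10 without PSC HT 3).

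Fgf9, a ligand made by mesothelium and epithelium in the developing lung, rose in PSC HT. Its level was -0.21, 0.79 and 0.86 in PSC HT, against -1.36, -0.92 and -0.98 in PSC WT. All 3 PSC HT arrays were above all PSC WT arrays, and PSC HT 1 was the nearest to them. The difference was 1.57 ± 0.30 with an adjusted p of 0.030. Without PSC HT 3 it was 1.38 with an adjusted p of 0.083, which no longer passed, and leaving out PSC HT 2 or any 1 PSC WT array also ended the call (1.41 to 1.65, adjusted p 0.086 to 0.10).

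Pdgfd, which encodes a PDGF ligand activated by proteolysis, rose in PSC HT as well. Its level was 0.76, 0.85 and 0.83 in PSC HT, against -0.14, 0.21 and 0.14 in PSC WT. The PSC HT arrays were nearly alike and the PSC WT arrays all lower. The difference was 0.74 ± 0.11 with an adjusted p of 0.012, and 0.74 without PSC HT 3 with an adjusted p of 0.047. Without PSC WT 3 it was 0.78 with an adjusted p of 0.053. The second Pdgfd probe differed by 0.93 ± 0.11 with an adjusted p of 0.0054 over all probes tested.

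**Figure D2:**
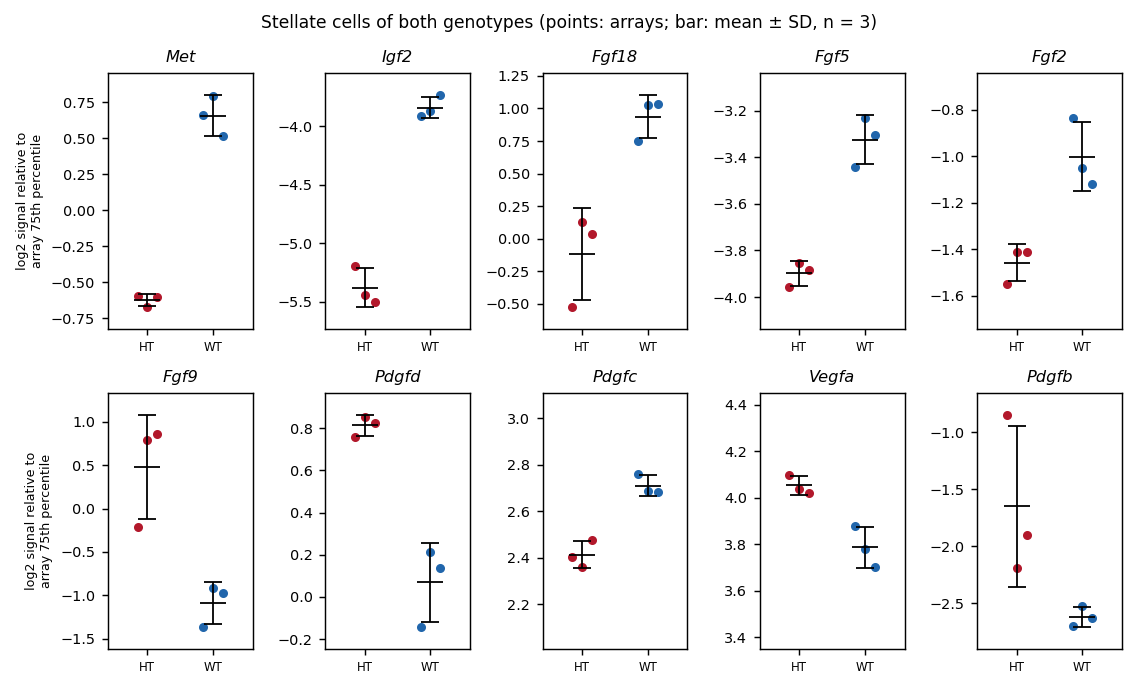
Level of 10 genes in PSC HT and PSC WT (points are arrays, black bars mean ± SD, n = 3 each; log2 signal relative to the array's 75th percentile, axis range set per gene). The first 7 panels passed the test and their groups do not overlap; Pdgfc, Vegfa and Pdgfb also do not overlap but had adjusted p of 0.058, 0.098 and 0.15.

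Within slide 1 and within slide 2 the 7 differences kept their signs, which was fixed in advance because the groups did not overlap. Each slide held a single array of 1 genotype, so only the sizes are given. They were -1.44 and -1.64 for Igf2, -0.99 and -0.90 for Fgf18, -0.48 and -0.58 for Fgf5, -0.64 and -0.32 for Fgf2, 1.69 and 1.73 for Fgf9, and 0.94 and 0.68 for Pdgfd. With slide as a block Fgf2 was -0.48 with an adjusted p of 0.058 and the other 6 passed.

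Other genes had groups apart without passing the test. Pdgfc stood at 2.40, 2.36 and 2.48 in PSC HT, against 2.76, 2.69 and 2.68 in PSC WT, a difference of -0.30 ± 0.07 with an adjusted p of 0.058, and with slide as a block it was -0.32 and passed (adjusted p 0.049). Vegfa was 4.10, 4.04 and 4.02 in PSC HT, against 3.88, 3.78 and 3.70 in PSC WT, a difference of 0.27 ± 0.08 with an adjusted p of 0.098. Its other 3 probes differed by 0.23 to 0.38, so the 4 probes had the same sign. Pdgfb, a ligand of both PDGF receptors that macrophages also make, was -0.85, -2.19 and -1.90 in PSC HT, against -2.70, -2.53 and -2.63 in PSC WT. PSC HT 1 was far above the rest, and this array also had the most macrophage transcripts, its Lyz2 level being 6.90 while PSC HT 2 had 5.62 and PSC HT 3 had 5.61. The part of the macrophage, mesothelial, endothelial and Schwann cell transcripts in the differences between PSC HT and PSC WT was not tested.

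The PDGF receptors themselves did not pass. Pdgfrb averaged 4.59 ± 0.09 in PSC HT and 4.40 ± 0.08 in PSC WT, and Pdgfra 1.44 ± 0.06 in PSC HT and 1.38 ± 0.10 in PSC WT (SD, n = 3 each). The 95% interval of the Pdgfrb difference, not adjusted for the number of genes, ran from -0.0049 to 0.39. Fgfr1, the FGF receptor of mesenchyme, averaged 4.59 ± 0.12 in PSC HT and 4.60 ± 0.05 in PSC WT. Fgfr2 averaged -2.05 ± 0.12 in PSC HT and -1.77 ± 0.07 in PSC WT (SD, n = 3 each), and its other probe was not above background on any PSC array.

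Genes of the surrounding pathways were also compared between PSC HT and PSC WT, where the counts stand beside the 2.95% higher and 4.78% lower of all genes tested and no list was tested as a whole. Of 16 IGF pathway genes tested 0 rose and 3 fell: H19, the imprinted RNA next to Igf2, by -2.13 ± 0.12, the growth inhibitor Grb10 by -0.72 ± 0.08 and the insulin receptor substrate Irs2 by -0.70 ± 0.14. Of 12 genes around HGF and MET 2 rose and 2 fell. Those that fell were Plxnb1, a semaphorin receptor that associates with MET, at -0.81 ± 0.07, and Mst1r, the MET-related receptor RON, at -0.74 ± 0.13. Those that rose were Sema4d, the ligand of plexin B1, at 2.43 ± 0.41, and the urokinase gene Plau at 0.55 ± 0.11. All of these had an adjusted p of 0.033 or below.

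Of 14 PDGF and VEGF pathway genes tested, 3 rose and 2 fell in PSC HT. The VEGF receptor Flt1 rose, with a mean level of 0.49 in PSC HT against -1.04 in PSC WT (difference 1.53 ± 0.07, adjusted p 0.0006), and Pdgfrl rose by 0.64 ± 0.10. Kdr, the main endothelial VEGF receptor, fell, with a mean of -3.58 in PSC HT against -2.18 in PSC WT (difference -1.40 ± 0.14). Both genes are also on the endothelial marker list, where Flt1 is the 1 marker higher and Kdr is among the 6 lower in PSC HT. Ccbe1, which helps to mature VEGF-C, fell by 0.85 on the log2 scale. Of 19 FGF pathway genes 0 rose and 2 fell, Flrt2 at -1.03 ± 0.07 and the FGF carrier Fgfbp3 at -0.43 ± 0.07. Of 26 heparan sulfate genes 1 rose and 3 fell: heparanase, Hpse, at 1.12 ± 0.11, Hs3st1 at -0.63 ± 0.11 and the sulfatases Sulf2 at -0.57 ± 0.08 and Sulf1 at -0.37 ± 0.08. The median difference was -0.0099 for the IGF list, -0.0053 for the HGF and MET list, -0.0011 for the heparan sulfate list, 0.26 for the PDGF and VEGF list and -0.19 for the FGF list, against -0.0028 over all genes. In bulk RNA fewer cells of a type and less RNA per cell cannot be told apart.

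The cells grown in conditioned medium were compared next, which asks whether neoplastic cells change their own growth factor genes when exposed to stellate cell products. Both comparisons share the control medium arrays. With HT PSC medium 3 of 29 genes tested were called (Fgf1 lower, Pdgfd and Pdgfb higher), beside a background of 5.47% of 19686 genes tested (2.97% higher and 2.5% lower). With WT PSC medium 3 of 29 were called (Fgf1 lower, Fgf13 and Pdgfd higher), beside a background of 5.96% (2.8% higher and 3.15% lower). With each medium the arrays did not overlap with control in 10 of the 29 genes, beside 24.4% of all genes for HT PSC medium and 25.3% for WT PSC medium. The median difference of the 29 genes was 0.01 with HT PSC medium and -0.02 with WT PSC medium, against 0.01 and 0.03 over all genes, and no called difference reached 1 on the log2 scale.

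Fgf1, acidic FGF, which binds all FGF receptors, fell with both media. Its level was 1.90, 1.80 and 1.85 in HT PSC medium and 1.72, 1.59 and 1.63 in WT PSC medium, against 2.36, 2.41 and 2.38 in control medium. All 6 arrays of conditioned medium were below all 3 control arrays. The difference from control was -0.53 ± 0.06 for HT PSC medium (adjusted p 0.0024) and -0.74 ± 0.06 for WT PSC medium (adjusted p 0.0004). Both further Fgf1 probes had the same sign, at -0.37 and -0.64 for HT PSC medium and at -0.47 and -0.65 for WT PSC medium. With array median scaling the HT PSC medium difference was -0.46 and no longer passed (adjusted p 0.077). Within slides 1 and 2 it was -0.50 and -0.60 for HT PSC medium, and -0.65 and -0.79 for WT PSC medium.

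Pdgfd rose with both media. Its level was -1.84, -2.20 and -2.07 in HT PSC medium and -2.13, -2.11 and -2.14 in WT PSC medium, against -2.66, -2.43 and -2.59 in control medium. The conditioned arrays were all above the control arrays. The difference was 0.52 ± 0.10 for HT PSC medium (adjusted p 0.021) and 0.43 ± 0.10 for WT PSC medium (adjusted p 0.040). The call for WT PSC medium was lost with the replicate number as a block (0.43, adjusted p 0.083) and with slide as a block (0.44, adjusted p 0.061), while that for HT PSC medium passed with slide as a block (adjusted p 0.027) and not with the replicate block (adjusted p 0.054). Without 1 array the call for HT PSC medium held only when control 2 or HT PSC medium 2 was the array left out, and that for WT PSC medium only when it was control 2. Within slides 1 and 2 the difference was 0.67 and 0.23 for HT PSC medium, and 0.49 and 0.30 for WT PSC medium. The second probe differed by 0.33 for HT PSC medium and by 0.24 for WT PSC medium and did not pass.

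Pdgfb rose with HT PSC medium. Its level was 2.92, 2.85 and 2.78 in HT PSC medium and 2.82, 2.64 and 2.96 in WT PSC medium, against 2.33, 2.52 and 2.42 in control medium. The groups of conditioned medium were above the control arrays and overlapped each other. The difference was 0.43 ± 0.09 for HT PSC medium (adjusted p 0.038) and 0.38 ± 0.09 for WT PSC medium (adjusted p 0.055). A second Pdgfb probe did not follow, at -0.14 ± 0.20 for HT PSC medium and 0.01 ± 0.20 for WT PSC medium, and the call for HT PSC medium was lost in each of the 6 fits without 1 array. It was also lost with array median scaling (adjusted p 0.092), the replicate block (adjusted p 0.082) and the mean of probes (0.14, adjusted p 0.55). The WT PSC medium difference passed with normexp (adjusted p 0.048), quantile scaling (adjusted p 0.044) and the series matrix values (adjusted p 0.034). Within slides 1 and 2 the HT PSC medium difference was 0.47 and 0.33.

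Fgf13, which encodes an intracellular FGF homologue that binds sodium channels, was called with WT PSC medium only. Its level was -3.88, -3.80 and -3.80 in HT PSC medium and -3.70, -3.77 and -3.44 in WT PSC medium, against -4.14, -4.07 and -4.39 in control medium. Every conditioned array was above every control array. The difference was 0.37 ± 0.11 for HT PSC medium (adjusted p 0.10) and 0.56 ± 0.11 for WT PSC medium (adjusted p 0.021). The call for WT PSC medium was lost with the replicate block (adjusted p 0.057) and with normexp background correction (0.34, adjusted p 0.063). It was also lost without control 1, control 3, WT PSC medium 1 or WT PSC medium 3 (0.47 to 0.59). With the mean of its probes the call changed medium. The difference was then 0.52 for HT PSC medium, which passed (adjusted p 0.043), and 0.33 for WT PSC medium, which did not (adjusted p 0.17). The probes other than the one used were above background on no control array. With the probe used, the WT PSC medium difference was 0.56 within slide 1 and 0.46 within slide 2. The 2 media were not shown to differ, since HT PSC medium minus WT PSC medium was -0.19 ± 0.11 with a 95% interval of -0.44 to 0.06.

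**Figure D3:**
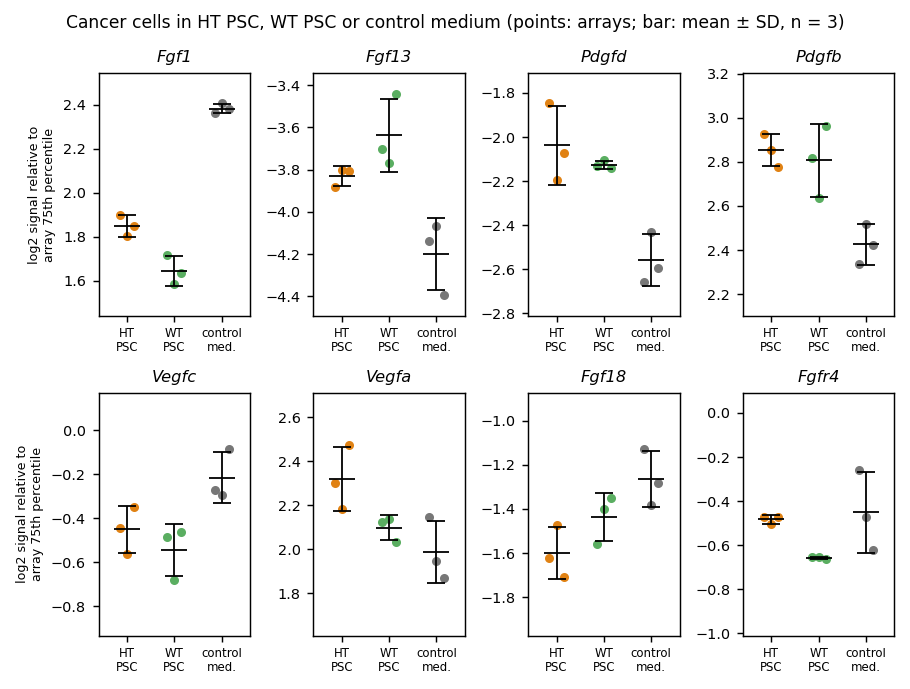
Level of 8 genes in neoplastic cells given HT PSC medium, WT PSC medium or control medium (points are arrays, black bars mean ± SD, n = 3 each; log2 signal relative to the array's 75th percentile, axis range set per gene). Fgf1 is lower, and Fgf13, Pdgfd and Pdgfb are higher, on all 6 conditioned arrays than on the 3 control arrays, Vegfc is lower on all 6, and Vegfa, Fgf18 and Fgfr4 each have groups that overlap.

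Fgfr1 did not pass with either medium. Its level was -4.12, -4.85 and -4.23 in HT PSC medium and -4.02, -4.36 and -4.47 in WT PSC medium, against -3.55, -3.75 and -3.79 in control medium. All 6 conditioned arrays were below the control arrays, with HT PSC medium 2 the lowest. The difference was -0.70 ± 0.20 for HT PSC medium (adjusted p 0.083) and -0.58 ± 0.20 for WT PSC medium (adjusted p 0.13). For HT PSC medium it passed with slide as a block (-0.70, adjusted p 0.021), which made 4 genes called, and with all 15 arrays in 1 fit (adjusted p 0.036). The other 3 Fgfr1 probes were not above background on any neoplastic array.

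Vegfc, the ligand of lymphatic endothelium, was -0.44, -0.56 and -0.35 in HT PSC medium and -0.48, -0.68 and -0.46 in WT PSC medium, against -0.27, -0.29 and -0.08 in control medium. All 6 conditioned arrays were below the control arrays. The difference was -0.23 ± 0.09 for HT PSC medium (adjusted p 0.21) and -0.33 ± 0.09 for WT PSC medium (adjusted p 0.085), and with the replicate block the adjusted p for WT PSC medium was 0.040.

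No gene was called between the conditioned media: HT PSC medium against WT PSC medium gave 0 of 29 genes, beside a background of 0% of 19686 genes by limma at the same threshold. At an unadjusted p under 0.05 there were 2, Fgf1 at 0.20 (95% interval 0.07 to 0.34) and Igfbp2 at -0.44 (-0.83 to -0.05). Vegfa differed by 0.22 with an interval from -0.0019 to 0.44. Its level was 2.30, 2.18 and 2.47 in HT PSC medium and 2.12, 2.14 and 2.04 in WT PSC medium, against 2.15, 1.95 and 1.87 in control medium, and its difference from control in HT PSC medium was 0.33 ± 0.10 (adjusted p 0.096).

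Met was not called in the neoplastic cells. It averaged 1.92 ± 0.05 in HT PSC medium and 1.89 ± 0.03 in WT PSC medium, against 1.87 ± 0.07 in control medium (SD, n = 3 each). Among the neighbouring genes the FGF carrier Fgfbp1 rose by 0.80 ± 0.10 with HT PSC medium and by 0.74 ± 0.10 with WT PSC medium, and the co-receptor Klb fell, at -1.15 ± 0.20 and -1.42 ± 0.20 for the same media. Klb was dim, above background on 2 arrays of HT PSC medium, 1 of WT PSC medium and all 3 of control medium. Counts of these lists stand beside 2.97% higher and 2.5% lower of all genes tested with HT PSC medium. With WT PSC medium they stand beside 2.8% higher and 3.15% lower, and no list was tested as a whole. Of 20 FGF pathway genes tested, 1 rose and 1 fell with HT PSC medium, and 1 rose and 3 fell with WT PSC medium (Flrt3 and the feedback inhibitor Spry4 beside Klb). The mRNA-binding protein gene Igf2bp1 rose by 0.75 ± 0.07 with HT PSC medium and 0.77 ± 0.07 with WT PSC medium. Among 12 IGF pathway genes tested this made 1 riser with HT PSC medium and 2 with WT PSC medium, the other being Htra1.

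The heparan sulfate list had 2 genes higher and 1 lower of 20 tested with each conditioned medium. The same shares of all genes apply to this list and to those that follow, and none was tested as a whole. The core protein gene Gpc1 rose by 0.51 ± 0.08 with HT PSC medium and 0.49 ± 0.08 with WT PSC medium, and Hs6st2 by 0.41 ± 0.08 and 0.44 ± 0.08. Heparanase fell, at -0.64 ± 0.11 with HT PSC medium and -0.77 ± 0.11 with WT PSC medium. Of 14 PDGF and VEGF pathway genes tested, 2 rose and 1 fell with HT PSC medium and 3 rose and 1 fell with WT PSC medium, where Ptprb and the placental growth factor gene Pgf were among the risers. Pdgfrl fell in both, at -0.74 ± 0.08 and -0.70 ± 0.08, and Ccbe1 rose by 0.50 ± 0.12 and 0.66 ± 0.12. Plau rose by 0.85 ± 0.14 with HT PSC medium, which is also 1 of 12 genes called in the HGF and MET list, where WT PSC medium called 0.

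The cell types were compared last, PSC WT against neoplastic cells in control medium, which describes the 2 cell types the conditioned medium experiment joins. Of 40 genes tested 29 were higher and 7 lower in PSC WT, 90.0% together, beside a background of 71.4% of 21924 genes (36.1% higher and 35.2% lower). The arrays of 37 of the 40 did not overlap, beside 75.6% of all genes. The median difference was 1.36, against 0.04 over all genes. Scaling to the array median in place of the 75th percentile put the median of all genes at -0.36 and that of these genes at 0.96, so small differences depend on the scaling. Fgf6, Fgfr3, Igf1r, Igf2r and Pdgfc, all under 0.8 higher, were no longer called with it.

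The receptors split by cell type. Pdgfrb was 4.46, 4.43 and 4.32 in PSC WT, against readings of -7.92, -7.76 and -7.54 in control medium that were not well above background, so the gene was at least 992-fold higher in PSC WT. Pdgfra stood at 1.28, 1.48 and 1.38 in PSC WT and was not above background on any neoplastic array, which makes it at least 122-fold higher. Fgfr1 was 4.63, 4.64 and 4.55 in PSC WT, against -3.55, -3.75 and -3.79 in control medium, a difference of 8.30 ± 0.10. The direction was alike on the 3 other Fgfr1 probes, which were not above background in control medium and at least 12.5-fold to 39.5-fold higher in PSC WT.

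The receptors lower in PSC WT were Fgfr4 and Met. Fgfr4, a receptor of epithelial and liver cells, was -5.64, -5.27 and -4.64 in PSC WT, against -0.26, -0.47 and -0.62 in control medium, a difference of -4.73 ± 0.25. A further Fgfr4 probe differed by -5.23, while the remaining one differed by -0.47. Met was 0.66, 0.80 and 0.52 in PSC WT, against 1.93, 1.87 and 1.80 in control medium, a difference of -1.21 ± 0.10. Fgfr2 was 2.23 ± 0.12 higher in PSC WT.

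Among ligands of mesenchyme, Hgf was at -0.95, -0.72 and -0.90 in PSC WT and not above background in control medium, at least 25.9-fold higher in PSC WT. Fgf7, keratinocyte growth factor, was 1.57, 1.45 and 1.53 in PSC WT, against -4.91, -5.12 and -4.96 in control medium, a difference of 6.51 ± 0.09. Bounds of the same kind as for Hgf were at least 23.4-fold for Fgf2, 22.1-fold for Fgf9, 13.7-fold for Fgf10, 10.1-fold for Fgf21, 4.68-fold for Fgf5, 3.28-fold for Igf2 and 2.11-fold for Igfbp5, all higher in PSC WT.

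Other ligands were above background in both cell types. Pdgfa differed by 1.65 ± 0.13, Vegfa by 1.80 ± 0.11, Vegfc by 1.03 ± 0.10, Fgf18 by 2.20 ± 0.12 and Pdgfd by 2.63 ± 0.12, all higher in PSC WT. Figf, which encodes VEGF-D, averaged 4.83 in PSC WT and -0.76 in control medium, a difference of 5.59 ± 0.13. The ligands lower in PSC WT were Pdgfb at -5.05 ± 0.09, Fgf1 at -3.67 ± 0.09, Fgf8, an embryonic FGF, at -2.78 ± 0.18 and Vegfb at -1.15 ± 0.27. The intracellular homologue Fgf13 was also lower, at -0.75 ± 0.11. With the mean of its 3 probes Fgf13 was 0.44 and passed in the other direction (adjusted p 0.049). There 1 further probe was above background on none of these arrays and the remaining one on 2 PSC WT arrays and no control array. With normexp background correction Fgf13 was -0.22 and no longer passed (adjusted p 0.13).

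The IGF binding proteins differed widely in their contrast. Igfbp2 stood at 5.81, 5.62 and 5.61 in PSC WT, against -5.30, -5.12 and -5.23 in control medium, a difference of 10.90 ± 0.10. Igfbp6, which prefers IGF-2, was 5.51, 5.19 and 5.30 in PSC WT, against -5.68, -5.07 and -5.74 in control medium, where 1 array was above background, a difference of 10.83 ± 0.20. Igfbp7 was higher by 1.06 ± 0.12, while Igfbp3 (0.28, 95% interval -0.07 to 0.63) and Igfbp4 (0.35, -0.03 to 0.73) did not pass. Of the IGF receptors Igf1r was 0.76 ± 0.12 and Igf2r 0.60 ± 0.12 higher in PSC WT. The protease Pappa, which cleaves IGF binding proteins, averaged 4.19 in PSC WT and was not above background in control medium.

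**Figure D4:**
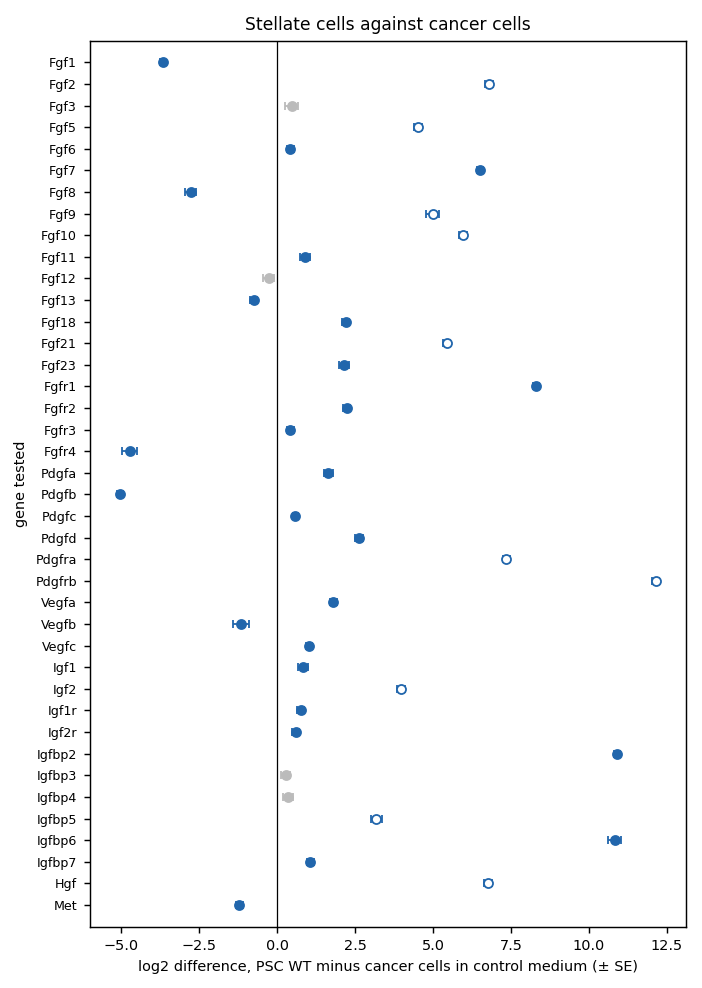
Log2 difference, PSC WT minus neoplastic cells in control medium, for the 40 genes tested (± SE; 3 arrays each). Blue genes passed an adjusted p of 0.05, grey ones did not, and open points have a group with no array above background, so that their plotted difference is between readings and the bound is given in the text. The 7 genes left of 0 in blue are Fgf1, Fgf8, Fgf13, Fgfr4, Pdgfb, Vegfb and Met.

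The size of the Igf1 contrast depended on the probe. The Igf1 probe used here averaged 0.29 in PSC WT and -0.54 in control medium, a difference of 0.83 ± 0.17. Probe 2 printed above averaged 3.22 in PSC WT and was not above background in control medium, at least 439-fold higher in PSC WT. Probe 3 was at least 6.30-fold higher. All 3 were higher in PSC WT, but by amounts that cannot be put on 1 scale.

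Fgf23, a bone hormone, is read by a single probe that opens with a CA repeat, as printed above. Its level was 4.99, 4.86 and 4.98 in PSC WT, against 3.00, 2.94 and 2.48 in control medium, a difference of 2.14 ± 0.15. The 32 probes of the array that hold a CA repeat of 20 or more bases had a median level of 3.53 over the 15 arrays, against -4.62 for all probes. Whether this probe read Fgf23 transcript was not tested. The Fgfr1 probe used here has 21 A among the 30 printed bases, and the 43 probes with at least as many in that stretch had a median level of -4.30. Fgf6 showed a similar split, with the probe used above background on all 15 arrays and its other probe at background in PSC WT and in control medium.

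**Figure D5:**
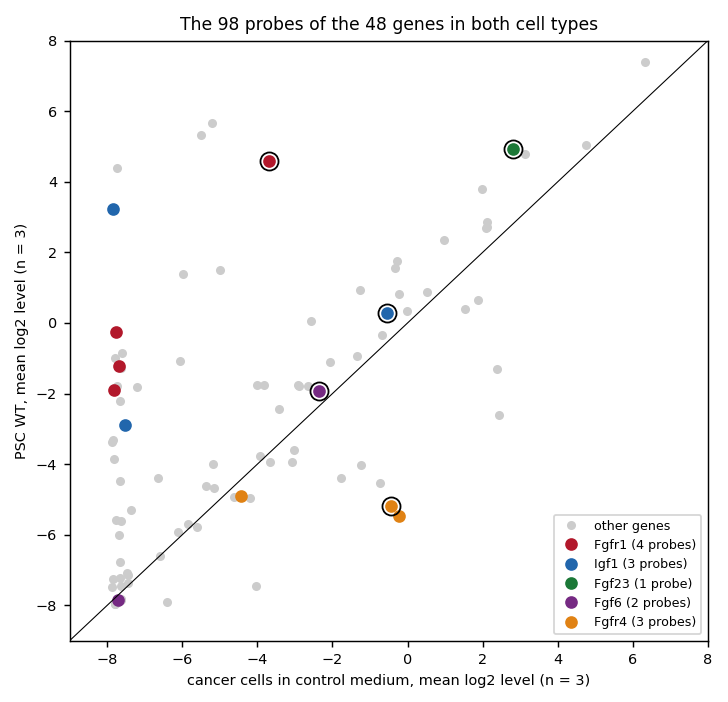
Mean level of the 98 probes in neoplastic cells in control medium (x) and PSC WT (y), both as log2 signal relative to the array's 75th percentile, n = 3 arrays each; the line marks equal levels and black rings mark the probe used for a coloured gene. The 4 Fgfr1 probes lie far above the line, the 3 Igf1 probes lie above it by different amounts, and 1 of the 3 Fgfr4 probes lies near it.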

How the data were processed

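Total RNA of 15 samples was hybridised to single-colour Agilent arrays, labelled with Cy3 per the labels. Per the file headers, the deposited scanner files were made with Feature Extraction 10.7.3.1 on build mm9, and the processed signal is an intensity after background subtraction. The log2 values of the deposited series matrix, whose making is not given in the sources used here, were an alternative for comparisons inside 1 cell type. From the intensities, log2 minus each array's 75th percentile was computed. Arrays had 54.3% to 63.8% of their spots above background and 0 saturated, and their 75th percentile was an intensity of 913 to 1449. The 300 probes spotted 10 times were averaged.

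Using R 4.3.3, limma (version 3.58.1) was fitted separately to the 6 PSC arrays, the 9 neoplastic arrays and the 6 arrays of PSC WT and control medium. Where a group had no array above background, "at least N-fold" sets the bright mean against the higher of the dim reading and each array's lowest signal above background. Procedures were tested on simulated data. Members, lists and tests were chosen with earlier results of these data known. Every member may be named. Of the other lists, up to 4 genes per comparison are named, by size of the difference, among those called whose groups do not overlap.

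Same-numbered arrays of WT PSC medium and control medium deviated together (r = 0.21, 0.25 and 0.22). Some differently numbered arrays did so as much. WT PSC medium 1 with control 3 had r = 0.22, WT PSC medium 2 with control 1 had 0.22, and WT PSC medium 3 with control 2 had 0.21. The remaining pairs had r of -0.46 to -0.42. These correlations do not show that the numbers pair samples. For that comparison the replicate block is printed where it changes a call. In no other comparison were all 3 correlations of same-numbered arrays above 0.1. Alternatives were normexp with an offset of 50, quantile or median scaling, no filter, the mean of probes, slide or replicate as a block, within-slide fits, other variance settings, 1 fit of all arrays, the series matrix and leaving out each array. Tables were made in Python 3.11.15 with pandas 2.3.3 and numpy 2.4.6, and figures with matplotlib 3.10.9.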

Additional observations from a re-analysis of the deposited data

How the results depend on the processing

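Between PSC HT and PSC WT the number of genes called fell to 2 of 48 without the filter on dim probes, to 0 within slide 1 and to 2 within slide 2, and ranged from 2 to 7 when 1 array was left out. With WT PSC medium it was 1 without the filter, 1 with the mean of probes, 1 within slide 1, 0 within slide 2 and 1 to 3 when 1 array was left out. With HT PSC medium it was 1 with array median scaling, 0 within either slide, 1 with the replicate block and 1 to 2 when 1 array was left out. Some settings gave more calls. Between PSC HT and PSC WT there were 9 with quantile scaling or the series matrix values. There were 10 with other variance settings or all 15 arrays in 1 fit. Fgf7, at 0.26, was among those called with quantile scaling, the series matrix values and other variance settings. WT PSC medium had 4 with quantile scaling, and HT PSC medium had 4 with slide as a block or other variance settings. HT PSC medium against WT PSC medium stayed at 0 throughout, and PSC WT against control medium ranged from 34 to 40 when 1 array was left out. In a within-slide fit 1 of the groups may have a single array, whose variance is then taken from the other group and the fits hold fewer arrays. Values reversed with the mean of probes for Fgfr2 (0.094, PSC HT against PSC WT), Fgf13 (0.44) and Fgfr3 (-0.030, both PSC WT against control medium), in each of which at least 1 of the probes averaged was above background on no array of either group. Of these reversed values only that of Fgf13 passed (adjusted p 0.049).

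Over all genes the count between PSC HT and PSC WT was 401 without the filter, 0 and 433 within slides 1 and 2, 2459 with all 15 arrays in 1 fit and 552 to 1280 without 1 array. It was lowest without PSC WT 3, and 634, 935 and 945 without PSC WT 2, PSC HT 2 and PSC HT 3. Array median scaling gave 654 genes for WT PSC medium and 519 for HT PSC medium. With the replicate block 6 genes were called between PSC HT and PSC WT (Fgf2 lost), 2 with WT PSC medium and 36 between the cell types. Testing every probe, chosen after seeing the data, gave 7 genes between PSC HT and PSC WT and 2 with each conditioned medium. Dim genes are limited by their signal over background. In the fit of all 15 arrays the calls of Pdgfb with HT PSC medium (adjusted p 0.41) and of Fgf13 with WT PSC medium (adjusted p 0.059) were lost. The cause of the lost calls was not tested.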
